A study of Mus musculus with 12 samples.

Results

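The mitochondrially encoded genes are the genes of the circular mitochondrial chromosome, and they were taken here as every gene whose listed locus lies on chrM, matched by Ensembl identifier to the count table. There were 36 such genes among the 55141 with a row in the table: 12 messenger RNA genes, 2 ribosomal RNA genes and 22 transfer RNA genes. Another messenger RNA gene that the annotation places on chrM was not analysed here. They were measured by bulk poly-A RNA-seq in gastruloids, which are aggregates of mouse embryonic stem cells that break symmetry and form a body axis in culture. All groups were of 129/SVEV background, all received the same pulse of the Wnt agonist CHIR before embedding, and all were harvested at 120 h after seeding. The 4 groups differed in the hydrogel and in the time at which the aggregates were placed in it: 1.0 mM or 1.5 mM dextran-PEG gel, and 72 h or 96 h after seeding, with 3 libraries in each. Many gastruloids were pooled in each library, so a library holds every cell type of the aggregates, and fewer cells of a type cannot be told apart from less RNA per cell.

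Mitochondrial DNA encodes subunits of complexes I, III, IV and V of oxidative phosphorylation together with the ribosomal and transfer RNAs that translate them inside the organelle. Each strand is read by the polymerase Polrmt as a long precursor that is cut at the transfer RNAs, which punctuate the larger genes, and the levels of the mature RNAs are then set by stability and processing as well as by transcription. Most of the messenger RNAs receive short poly-A tails, whereas transfer RNAs do not. All other proteins of the organelle, including the factors that transcribe and process these RNAs, come from nuclear genes.

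The 12 libraries held between 23011791 and 27609422 counts. In a check of the labelled tissue, all 10 gastruloid markers examined, among them T, Sox2 and Meox1, had enough counts for a test over the 12 libraries. Hoxb9, 1 of the 10, was however at 0 to 0.0789 CPM in the libraries embedded at 72 h (CPM being the count of a gene relative to the TMM-scaled library size). Of 5 erythroid markers 4 stayed under 1 CPM in every library and Hbb-y was at 0. The cardiac marker genes summed to between 86.6 and 327 CPM after embedding at 72 h and between 25.3 and 109 CPM after embedding at 96 h, and the part of these cells in the results below was not tested.

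The mitochondrial chromosome contributed a few percent of every library. In 1.0 mM gels its share of all counts was 2.12%, 2.60% and 1.68% after embedding at 72 h and 2.76%, 2.37% and 2.89% after embedding at 96 h. With 1.5 mM gels they were 2.05%, 2.15% and 1.94% at 72 h and 2.46%, 3.02% and 2.58% at 96 h. The 95% Wilson interval of each share was at most 0.0130 percentage points wide, which covers counting error only, so the spread between libraries lay far above it. Shares of the embedding times overlapped in 1.0 mM gels, through the second library embedded at 72 h, and did not overlap in 1.5 mM gels. On the log2 scale the mean share after embedding at 72 h differed from that at 96 h by -0.34 in 1.0 mM gels, beside a within-group SD of 0.25, and by -0.39 in 1.5 mM gels, beside an SD of 0.12. The 1.0 mM value was -0.18 without the third library embedded at 72 h and -0.50 without the second. Between gels it was -0.04 at 72 h and 0.01 at 96 h, both smaller than the spread between libraries, and the sign turned at 72 h without the second 1.0 mM library (0.11) and at 96 h without the second library of either gel. As a sum over the genes, the share was given no test.

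Of the chrM counts, 94.5% fell on messenger RNA genes, 5.42% on ribosomal RNA genes and 0.0371% on transfer RNA genes. Per length, mt-Co1, the catalytic subunit of complex IV, had the highest mean level, at 5701 CPM per kb. It was followed by mt-Nd1 of complex I at 3840, mt-Cytb of complex III at 3642, mt-Nd2 at 1624, mt-Nd5 at 1522 and mt-Nd4 at 992 CPM per kb, the last 3 being further complex I subunits. The ribosomal RNAs mt-Rnr2 and mt-Rnr1 stood at 559 and 438 CPM per kb, and mt-Nd6, the 1 messenger RNA gene of the light strand, at 113 CPM per kb. In mm10 these genes lie, without introns, at chrM:5328-6872 (mt-Co1), chrM:2751-3707 (mt-Nd1), chrM:14145-15288 (mt-Cytb), chrM:3914-4951 (mt-Nd2), chrM:11742-13565 (mt-Nd5), chrM:10167-11544 (mt-Nd4) and chrM:13552-14070 (mt-Nd6), the last overlapping the end of mt-Nd5 on the opposite strand. Within the libraries the levels kept close ratios for some pairs: mt-Cytb over mt-Nd4, both per length, lay between 3.47 and 3.94 in all 12.

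A run of neighbouring genes departed from these levels. Over all 12 libraries mt-Co2 had 265 counts, mt-Co3 331, mt-Atp8 114, mt-Nd3 18 and mt-Nd4l 18, whereas mt-Co1 on 1 side had 2693452 and mt-Nd4 on the other 420067. mt-Co2 and mt-Co3 encode core subunits of complex IV, mt-Atp8 a subunit of the ATP synthase, and mt-Nd3 and mt-Nd4l subunits of complex I. All 5 lie inside a stretch, chrM:6390-11042 in mm10, whose outermost bases and most of whose length match 7 genes annotated on the minus strand of chromosome 1, chr1:24611535-24616197. Only annotated transcripts were compared, so what lies between those 7 genes was not examined. The pieces Gm28437, Gm28661 and Gm10222 carry mt-Co3, mt-Co2 and mt-Nd4l over 783, 681 and 294 bases with no difference. Gm28438 carries 345 bases of mt-Nd3 with the single difference T3C, and Gm29216 the last 483 bases of mt-Co1 with the single difference A1066T, positions being counted from the first base of the mitochondrial gene and the mitochondrial base given first. Gm28439 carries the first 876 bases of mt-Nd4 unchanged, and Gm10925 overlaps the last 43 bases of mt-Atp8.

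The stretches that show how close the copies are, taken from the GENCODE transcripts of the same build, were the first 100 bases of mt-Nd3 and of its copy and 100 bases of mt-Co1 from position 1063 and of its copy, with the differing base in capitals.
mt-Nd3: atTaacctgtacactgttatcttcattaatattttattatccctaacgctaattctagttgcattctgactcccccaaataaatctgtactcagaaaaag
Gm28438: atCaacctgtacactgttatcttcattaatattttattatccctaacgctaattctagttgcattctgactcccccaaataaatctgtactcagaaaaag
mt-Co1: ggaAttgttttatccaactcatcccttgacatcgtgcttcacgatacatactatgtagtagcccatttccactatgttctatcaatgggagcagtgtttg
Gm29216: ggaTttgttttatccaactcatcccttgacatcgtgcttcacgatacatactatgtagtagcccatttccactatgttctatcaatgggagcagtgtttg
The edge of the copied stretch falls within mt-Nd4. Bases 827 to 926 of that gene are shown with those beyond the end of the copy in capitals, and the same gene thus has 876 bases with an annotated nuclear twin and 502 without.
mt-Nd4: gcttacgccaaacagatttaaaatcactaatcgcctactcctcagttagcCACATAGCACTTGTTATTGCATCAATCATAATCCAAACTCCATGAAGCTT

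The counts followed this stretch. Of the 75-base windows of each gene, 75 bases being the read length, 99.5% of mt-Co2, 99.9% of mt-Co3, 97.8% of mt-Nd3 and 98.7% of mt-Nd4l occurred unchanged in another annotated transcript. The share was 61.5% for mt-Nd4, 39.8% for mt-Co1, 5.71% for mt-Nd2 and 1.66% for mt-Nd5, and 0 for mt-Nd1, mt-Cytb, mt-Nd6 and both ribosomal RNAs. mt-Atp8 shared 0 windows with annotated transcripts, its match to Gm10925 being shorter than a window, and whether the rest of it has a copy was not tested. The 7 chromosome 1 genes were also low, with 2154 counts in all, Gm28438 having the highest mean at 2.28 CPM, then Gm28437 at 1.38 and Gm10925 at 1.19 CPM. Counting programs by default keep only reads placed at 1 position. Whether that set the low counts was not tested, since the reads were not analysed here, and the low values of the 5 genes are therefore counts of assigned reads and not shown to be low RNA levels. The transfer RNA genes mt-Td, mt-Tk, mt-Tg and mt-Tr within the stretch were all at 0 and mt-Ts1 was at 5 counts, and whether they have a copy was not tested. If the counts of the 2 genes at the edges are set against the bases outside the copy alone, mt-Co1 stood at 8294 and mt-Nd4 at 2723 CPM per kb.

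**Figure D1:**
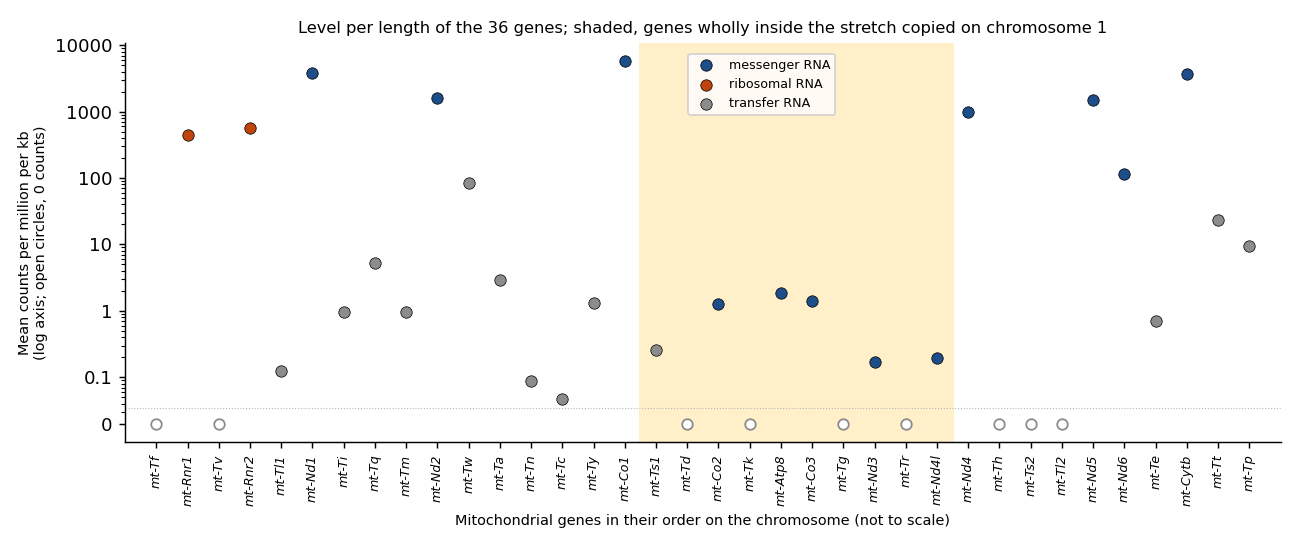
Mean level per length of the 36 mitochondrial genes over the 12 libraries (CPM per kb, log axis) in their order along the chromosome, coloured by RNA class, with open circles for the 9 genes at 0 counts and shading over the 10 genes wholly inside the copied stretch. The 5 messenger RNA genes in the shaded stretch lie between 0.172 and 1.85 CPM per kb, and mt-Co1 and mt-Nd4 at its edges at 5701 and 992.

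Transfer RNAs, which carry amino acids to the mitochondrial ribosome, were barely captured: 9 of the 22 genes had 0 counts in all 12 libraries, and 7 had between 1 and 21. A count of 0 allows at most 0.130 CPM in the shallowest library. With lengths of 59 to 75 bases, none of these genes is longer than a read. mt-Tw, the transfer RNA for tryptophan, had 1762 counts, mt-Tt for threonine 484, mt-Tp for proline 193, mt-Tq for glutamine 116 and mt-Ta for alanine 61. mt-Tw and mt-Tt together made up 82.8% of the transfer RNA counts. They sit directly behind mt-Nd2 and mt-Cytb on the same strand, and the first 2 bases of mt-Tw, in capitals, belong to mt-Nd2 as well.
mt-Tw: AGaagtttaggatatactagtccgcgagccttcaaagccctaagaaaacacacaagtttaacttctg
mt-Tt: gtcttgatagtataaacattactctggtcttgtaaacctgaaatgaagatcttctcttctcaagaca
A full-length read on them must extend into neighbouring sequence, so their counts cannot be told apart from reads of uncut precursors or of the ends of mt-Nd2 and mt-Cytb.

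To ask how the time of embedding related to these RNAs, libraries embedded at 72 h were compared with those embedded at 96 h by edgeR's quasi-likelihood test on the whole table, with Benjamini-Hochberg adjustment over all genes tested and a call at an adjusted p below 0.05. Log2 fold changes are negative where the level was lower after the earlier embedding. Of the 36 genes, 16 had enough counts to be tested in 1 or more comparisons, and the other 20, among them mt-Nd3 and mt-Nd4l, were not. Across both gels 7 of the 16 were lower after embedding at 72 h and 0 were higher, where 15.0% of all 16404 genes tested were lower and 16.1% higher. The called genes were mt-Nd1, mt-Nd2, mt-Nd4, mt-Nd5, mt-Cytb, mt-Tw and mt-Tt. By class they were 5 of 10 messenger, 0 of 2 ribosomal and 2 of 4 transfer RNA genes tested. The counts of mt-Tw and mt-Tt cannot be told apart from reads of the ends of mt-Nd2 and mt-Cytb, as given above. The study's stricter rule also asks for an absolute log2 fold change above 1. It was met by 0 of the 7 called genes and by 4.64% of all genes. The study itself applied that rule to pairwise DESeq2 comparisons and left mitochondrial genes out, so it gave no result for these genes. The median log2 fold change of the 10 messenger RNA genes tested was -0.33, beside -0.01 over all genes.

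In 1.0 mM gels mt-Nd4, a core subunit of the membrane arm of complex I, was at 1109, 1393 and 983 CPM after embedding at 72 h and at 1581, 1485 and 1662 CPM after embedding at 96 h. The libraries of 1.5 mM gels were at 1053, 1152 and 1043 CPM at 72 h and at 1453, 1804 and 1684 CPM at 96 h. Every library embedded at 72 h thus lay below every library embedded at 96 h. Across gels mt-Nd4 fell by 0.53 on the log2 scale (SE 0.08, adjusted p = 0.000301).

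The complex III subunit mt-Cytb stood at 3226, 4302 and 3095 CPM at 72 h and 4554, 4440 and 4833 CPM at 96 h in 1.0 mM gels. The 1.5 mM gels gave 3239, 3766 and 3280 CPM at 72 h and 4628, 5487 and 5156 CPM at 96 h. Its 72 h and 96 h libraries did not overlap either, and the difference across gels was -0.48 (SE 0.09, adjusted p = 0.000944).

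mt-Nd1, the complex I subunit beside the quinone site, was at 2922, 4053 and 2569 CPM at 72 h and 4287, 4145 and 4726 CPM at 96 h in 1.0 mM gels, and at 2986, 3074 and 2777 CPM and then 3651, 5072 and 3830 CPM in 1.5 mM gels. The embedding times were apart within each gel and overlapped across gels, where the change was -0.49 (SE 0.11, adjusted p = 0.0032). mt-Nd2 and mt-Nd5, proton-pumping subunits of the same complex, changed by -0.43 (SE 0.11, adjusted p = 0.008) and -0.40 (SE 0.10, adjusted p = 0.00734). mt-Nd2 ranged from 1198 to 1864 CPM at 72 h, with a median of 1436, and from 1630 to 2329 CPM at 96 h, with a median of 1921. mt-Nd5 ranged from 1909 to 2780 CPM around a median of 2429 at 72 h, and from 2667 to 3663 CPM around a median of 3174 at 96 h. In both genes the highest 72 h library and the lowest 96 h library overlapped.

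**Figure D2:**
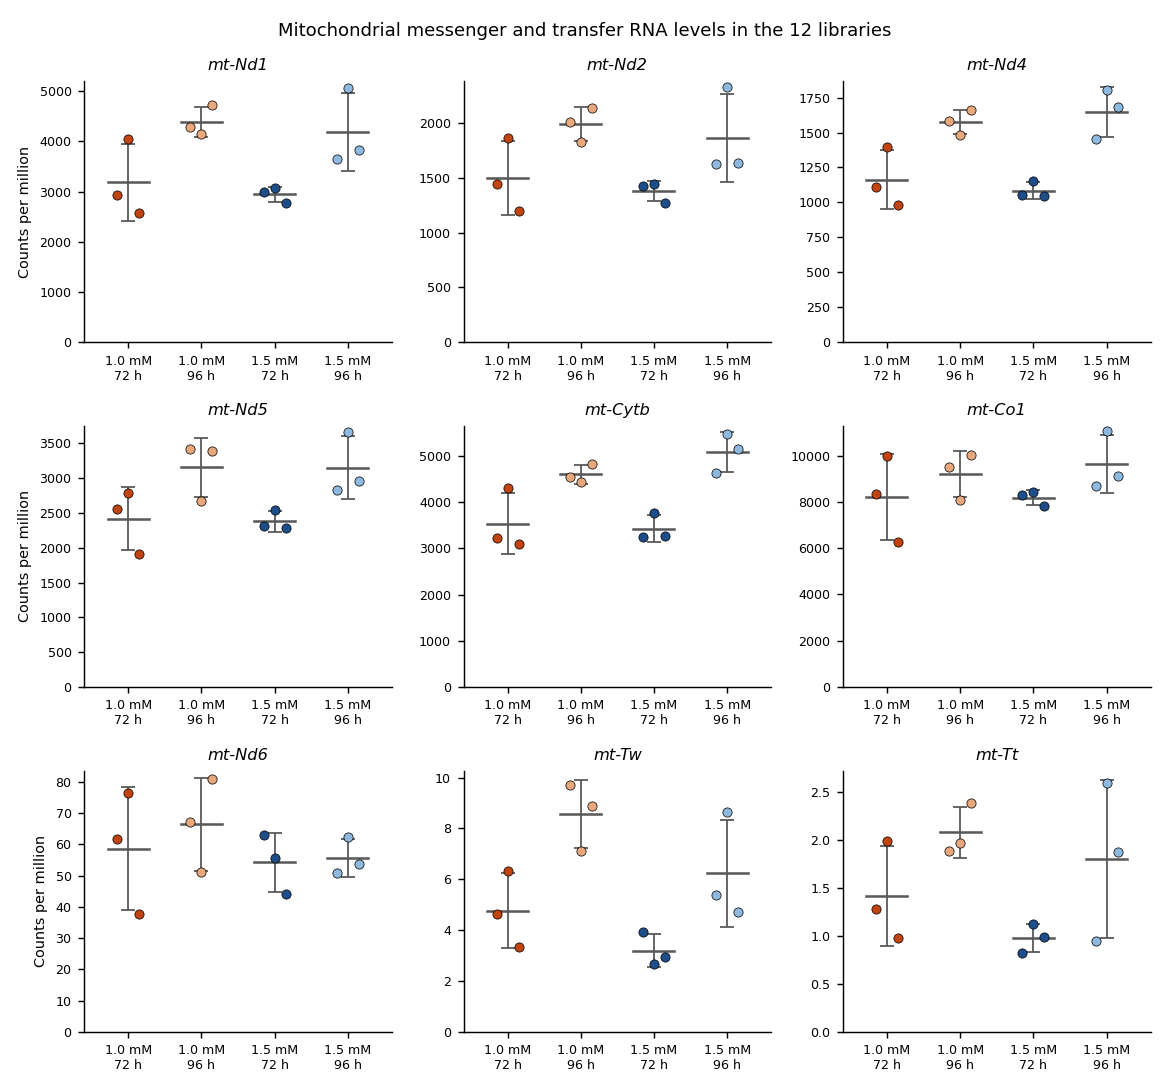
Level of 9 mitochondrial genes in each of the 12 libraries (points; CPM), by gel and embedding time, with the group mean as a horizontal line and the SD as the error bar (n = 3). For mt-Nd4 and mt-Cytb all libraries embedded at 72 h lie below all those embedded at 96 h, whereas for mt-Co1 and mt-Nd6 they overlap.

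mt-Co1 was the highest of these RNAs and did not pass the test. It was at 8331, 10002 and 6276 CPM at 72 h and 9528, 8093 and 10021 CPM at 96 h in 1.0 mM gels. With 1.5 mM gels the values were 8284, 8441 and 7822 CPM at 72 h and 8710, 11053 and 9141 CPM at 96 h. The groups overlapped in 1.0 mM gels and not in 1.5 mM gels, and the change across gels was -0.21 (SE 0.11, adjusted p = 0.153). mt-Nd6 ranged from 37.6 to 76.5 CPM at 72 h and from 50.7 to 80.9 CPM at 96 h, with a change of -0.11 (SE 0.15, adjusted p = 0.598). Among the 3 low-count genes of the copied stretch that were tested, mt-Co2, mt-Co3 and mt-Atp8 changed by -0.25, -0.23 and 0.38 with SEs of 0.25, 0.23 and 0.33, and their adjusted p-values were 0.475, 0.476 and 0.4.

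Because both RNAs were counted in the same libraries, the ratio of mt-Co1 to mt-Nd4 is free of the scaling between libraries. Per length it was 6.70, 6.40 and 5.69 at 72 h and 5.37, 4.86 and 5.38 at 96 h in 1.0 mM gels. The 1.5 mM gels had ratios of 7.02, 6.53 and 6.69 at 72 h and 5.35, 5.46 and 4.84 at 96 h. Every 72 h library was above every 96 h library, and in these libraries the level of mt-Nd4 differed more between embedding times than that of mt-Co1 did. The pair was chosen after its values were seen and the ratio was given no test. Ratios to mt-Nd4 were also taken for mt-Nd1, mt-Nd2, mt-Nd5, mt-Cytb and mt-Nd6, and all of these overlapped between embedding times. Part of mt-Co1 and of mt-Nd4 matches an annotated nuclear copy, and the effect of that on their ratio was not tested.

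The transfer RNA gene mt-Tw was at 4.64, 6.31 and 3.34 CPM at 72 h and 9.71, 7.11 and 8.88 CPM at 96 h in 1.0 mM gels, and at 3.92, 2.69 and 2.96 CPM and then 5.37, 8.64 and 4.72 CPM in 1.5 mM gels. The embedding times were apart within each gel, and the change across gels was -0.91 (SE 0.18, adjusted p = 0.00158). mt-Tt ranged from 0.827 to 2.00 CPM at 72 h and from 0.943 to 2.59 CPM at 96 h, with a change of -0.71 (SE 0.24, adjusted p = 0.0348), on at most 67 counts in a library. mt-Tq and mt-Tp changed by -0.48 (SE 0.36, adjusted p = 0.324) and -0.26 (SE 0.29, adjusted p = 0.535), and mt-Ta, between 1 and 15 counts in a library, was not tested.

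Taken by gel, edgeR called 6 genes for the 1.5 mM gel and 1 for the 1.0 mM gel, whereas DESeq2, and likewise edgeR without a filter on low counts, called 7 and 6. Over the whole table edgeR called 3022 and 1426 genes, DESeq2 3207 and 1717, and edgeR without the filter 3599 and 2289. In 1.5 mM gels 6 of the 14 genes tested were lower after embedding at 72 h and 0 higher, against 8.95% of all genes lower, 10.3% higher and 3.15% past the stricter rule. By class the 6 were 5 of 9 messenger, 0 of 2 ribosomal and 1 of 3 transfer RNA genes tested. They were mt-Nd4 (-0.61, SE 0.09, adjusted p = 0.00364), mt-Cytb (-0.57, SE 0.09, adjusted p = 0.00552), mt-Nd1 (-0.51), mt-Nd5 (-0.41), mt-Tw (-0.97) and mt-Nd2 (-0.44), with adjusted p-values of 0.0204 to 0.0479 for the last 4. In 1.0 mM gels 1 of 16 was lower, mt-Tw (-0.85, SE 0.23, adjusted p = 0.0398), and 0 were higher, against 3.2% and 5.84% of all genes and 4.26% past the stricter rule. By class this was 1 of 4 transfer RNA genes, with 0 of 10 messenger and 0 of 2 ribosomal RNA genes called. mt-Nd4 (-0.44, SE 0.13), mt-Nd1 (-0.47, SE 0.16), mt-Nd2 (-0.41, SE 0.15), mt-Cytb (-0.38, SE 0.14) and mt-Nd5 (-0.39, SE 0.16) had adjusted p-values of 0.0567 to 0.167 there. The difference between the gels was tested as an interaction of embedding time and gel. It called 0 of 16 mitochondrial genes and 0.0% of all genes by edgeR, and at an unadjusted p below 0.05 it held 703 genes of the whole table, of which 1, mt-Tq, was mitochondrial. DESeq2 called 2 genes of the whole table for the interaction and edgeR blocked on replicate number 5, none of them mitochondrial.

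The count in 1.0 mM gels rested on single libraries. Without the second library embedded at 72 h, where mt-Nd1, mt-Nd2, mt-Nd4, mt-Cytb and mt-Co1 lay 0.28 to 0.38 above their group's mean log2 level, 5 genes were called. Without any 1 of the other 5 libraries, 0 were. Calls over the whole table moved too, from 1426 to 1674 without that second library and to 730 to 1374 without any 1 of the others. With 1.5 mM gels the count of mitochondrial genes fell to 2 without the second or the third library embedded at 72 h and to 3 without the second embedded at 96 h. Whole-table calls fell from 3022 to 1604, 1333 and 1179 in the same order. With the replicate number as a block the 1.0 mM count of mitochondrial genes was 3 and the 1.5 mM count 6, beside 2177 and 3882 calls over the whole table.

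**Figure D3:**
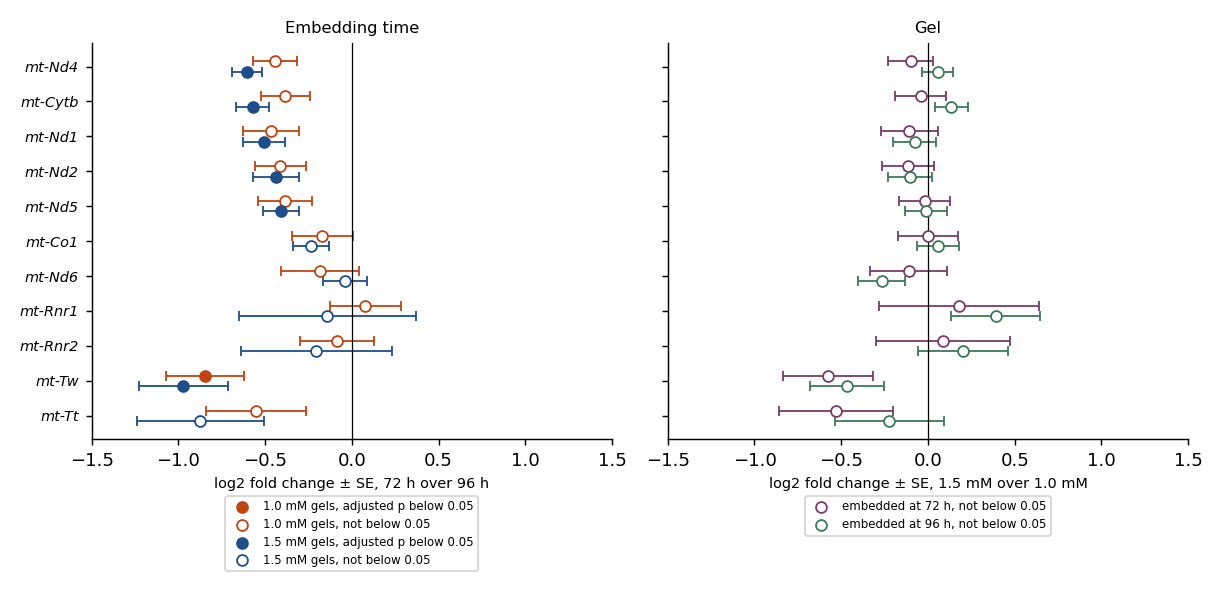
Log2 fold change ± SE of 11 mitochondrial genes between embedding times within each gel (left) and between gels within each embedding time (right), from edgeR's quasi-likelihood test, with filled points where the adjusted p was below 0.05. On the left mt-Nd4 lies at -0.44 and -0.61, and mt-Co1 at -0.17 and -0.24; on the right no point is filled.

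No mitochondrial gene was called between gels by edgeR's test. Embedding at 72 h gave 0 calls of 14 genes and at 96 h 0 of 15, where 0.0% of all genes were called in either comparison, and across both embedding times 0 of 16 were called, where 0.0305% of all genes were. At an unadjusted p below 0.05 the whole table held 1066, 1582 and 2077 genes in these 3 comparisons, and the mitochondrial genes among them numbered 0, 3 and 2, all transfer RNA genes. DESeq2 called 12, 96 and 215 genes of the whole table and edgeR blocked on replicate number 28, 281 and 85, 0 of them mitochondrial. Across embedding times mt-Nd4 differed between 1.5 mM and 1.0 mM gels by -0.02, with a normal 95% interval of -0.18 to 0.14, mt-Co1 by 0.03 (-0.18 to 0.23), mt-Cytb by 0.04 (-0.13 to 0.21) and mt-Nd1 by -0.09 (-0.30 to 0.11). mt-Tw differed by -0.52 (-0.87 to -0.17, adjusted p = 0.254) and mt-Tp by -0.64 (-1.21 to -0.06, adjusted p = 0.384).

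The ribosomal RNAs mt-Rnr1 and mt-Rnr2, the small and large subunit RNAs of the mitochondrial ribosome, varied most between replicates. Their share of all counts was 0.109%, 0.160% and 0.0923% at 72 h and 0.123%, 0.0934% and 0.159% at 96 h in 1.0 mM gels. Libraries of 1.5 mM gels had 0.225%, 0.0915% and 0.0621% at 72 h and 0.120%, 0.216% and 0.1001% at 96 h. All groups overlapped. Across gels mt-Rnr1 changed by -0.03 (SE 0.31, adjusted p = 0.948) and mt-Rnr2 by -0.15 (SE 0.27, adjusted p = 0.714) between embedding times. In 1.5 mM gels neither was called in the main fit, but each was called in 1 of 15 alternative fits. Their pooled SDs within groups were 0.72 and 0.63 on the log2 scale, beside a median of 0.10 over the 2440 genes with a mean of at least 100 CPM. The SDs of the 6 messenger RNA genes above that level lay between 0.16 and 0.23.

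A list of nuclear RNAs without a poly-A tail or like ribosomal RNA was read beside them, since the libraries were made by poly-A selection. The RNAs of that list that passed the filter were Rn7sk, which keeps a transcription elongation factor inactive, Rmrp, the RNA of a ribonuclease that processes ribosomal RNA, and Gm24187, whose type is not given here. Gm24187 was at 247 CPM in the first 1.5 mM library embedded at 72 h, which had the highest sum. The summed CPM of the list were 60.8, 153 and 209 at 72 h and 22.3, 67.1 and 44.6 at 96 h in 1.0 mM gels, and 393, 82.8 and 20.8 and then 100, 235 and 62.6 in 1.5 mM gels. Of the 3 tested, 2 were higher at 72 h than at 96 h in the 1.0 mM comparison, and 0 were called with 1.5 mM gels or across gels. The first 1.5 mM library embedded at 72 h and the second embedded at 96 h were highest in both this sum and the mitochondrial ribosomal share, and the third 1.5 mM library embedded at 72 h was lowest in both. Some other libraries did not follow this order. In 1.0 mM gels a library embedded at 72 h had 209 CPM and a ribosomal share of only 0.0923%. Conversely, 1.0 mM libraries embedded at 96 h with low sums of 22.3 and 44.6 CPM had shares of 0.123% and 0.159%. Lars2, the nuclear gene of the mitochondrial leucyl transfer RNA synthetase, was also highest in the 2 libraries that were highest in both measures. It was at 4511 and 2673 CPM there, against 176 to 1764 CPM in the other 10. With the libraries ordered by the summed CPM of the list, Lars2 rose throughout except at sums of 60.8, 62.6 and 67.1 CPM. In those it was at 721, 622.5 and 446 CPM. The library with a sum of 209 CPM and a ribosomal share of 0.0923% had 1764 CPM of Lars2. The part of these differences between libraries in the ribosomal and Lars2 values was not tested. Without the first 1.5 mM library embedded at 72 h, or without the second embedded at 96 h, the count of mitochondrial genes called between embedding times across gels was 6 instead of 7. Over the whole table the calls fell from 5103 to 4411 and 4130.

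**Figure D4:**
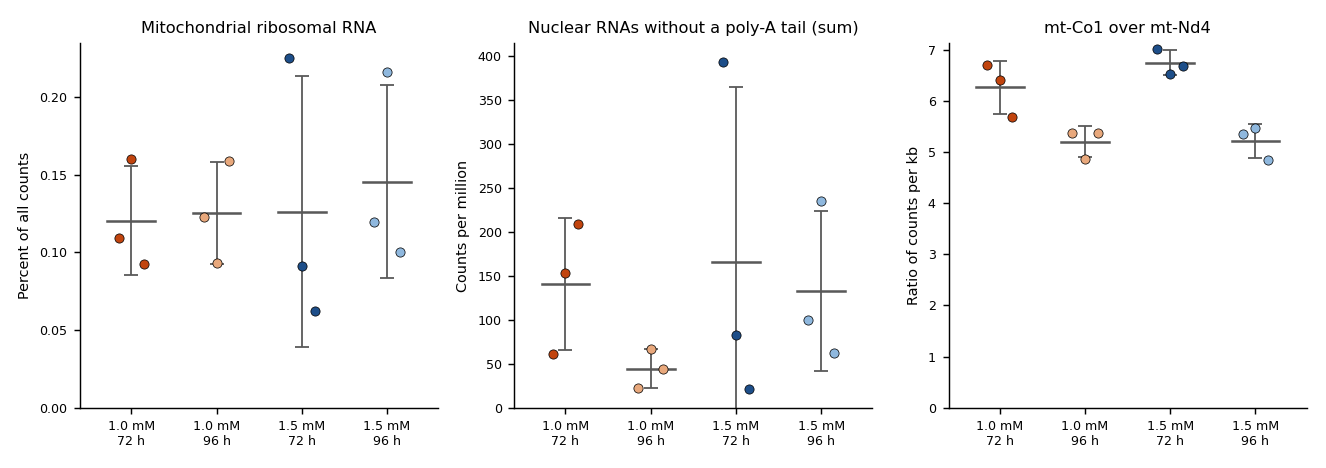
Mitochondrial ribosomal RNA as a percentage of all counts (left), summed level of the list of nuclear RNAs without a poly-A tail or like ribosomal RNA in CPM (middle) and the ratio of mt-Co1 to mt-Nd4 counts per kb (right) in each library, with the group mean (line) and SD (bar, n = 3; it passes below 0 in the middle panel for the 72 h group of 1.5 mM gels and is cut there). The ribosomal share spans 0.0621% to 0.225% in a single group, and the ratio is 5.69 to 7.02 at 72 h and 4.84 to 5.46 at 96 h.

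Nuclear genes that act on mitochondrial RNA were compared between embedding times across gels, where 16.1% of all genes tested were higher after embedding at 72 h and 15.0% lower. Of 23 factors of mitochondrial DNA transcription and replication, 2 were higher after embedding at 72 h and 6 lower, with a median log2 fold change of -0.11. The polymerase Polrmt was among the lower (-0.21, SE 0.06, adjusted p = 0.0168), at 32.2 to 39.4 CPM at 72 h and 38.8 to 45.6 CPM at 96 h. The packaging and initiation factor Tfam (-0.09, SE 0.05, adjusted p = 0.163) and the initiation factor Tfb2m (-0.15, SE 0.09, adjusted p = 0.226) were not called. Polg, the DNA polymerase of the organelle, rose by 0.27 (SE 0.06, adjusted p = 0.00257), whereas Ssbp1, which binds single-stranded mitochondrial DNA, changed by -0.17 (adjusted p = 0.0084), the termination factor homologue Mterf2 by -0.33 (adjusted p = 0.00605) and the nuclease Exog by -0.25 (adjusted p = 0.00988).

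Of 42 RNA processing, modification and decay factors, 1 was higher and 6 were lower, with a median of -0.09, the share lower being about that of all genes (15.0%) and the share higher below theirs (16.1%). Among them the pseudouridine synthase Pus1 (-0.28, adjusted p = 0.000661), the transfer RNA modifier Trit1 (-0.32, adjusted p = 0.00293) and the exoribonuclease Pnpt1 (-0.23, adjusted p = 0.00707) were lower, and Lactb2, an endoribonuclease, was higher (0.18, adjusted p = 0.0306). Lrpprc, which stabilises mitochondrial messenger RNAs, was at 0.01 (SE 0.07, adjusted p = 0.957) and the poly-A polymerase Mtpap at -0.08 (SE 0.05, adjusted p = 0.197). Of 19 synthetases that charge transfer RNAs in the organelle, 3 were lower, Vars2, Wars2 and Sars2 (-0.24, -0.25 and -0.28), and 1 higher, Iars2 (0.20), beside the same shares of all genes. Lars2 was at 1.11 (SE 0.60, adjusted p = 0.172), and its level between libraries nearly followed the sum of the RNAs without a poly-A tail given above. Of 9 nuclear regulators tested 3 were lower and 0 higher, beside the same shares of all genes: Myc by -1.25 (SE 0.10, adjusted p = 6.86e-07), the nuclear receptor Esrra by -0.27 and Gabpb1, a subunit of a regulator of respiratory genes, by -0.14.

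The partners of the mitochondrial products were compared in the same way. Of 80 genes for proteins of the mitochondrial ribosome 24 were lower after embedding at 72 h and 0 higher, with a median of -0.14, among them Mrpl13 (-0.29, SE 0.06, adjusted p = 0.00134) and Mrps11 (-0.37, SE 0.08, adjusted p = 0.00198). Of 75 nuclear genes for subunits of complexes I, III, IV and V, 24 were lower and 0 higher, with a median of -0.14. Those with the smallest adjusted p were Ndufa11 (-0.42, SE 0.08, adjusted p = 0.00147), Ndufa5 (-0.42, SE 0.08, adjusted p = 0.00167), Uqcr11 (-0.30) and Atp5j (-0.25). These counts across gels stand beside the 15.0% of all genes that were lower and the 16.1% that were higher. By gel, 0 of both lists were called in 1.0 mM gels, where 3.2% of all genes were lower. In 1.5 mM gels 18 of 79 ribosomal protein genes and 23 of 75 subunit genes were lower, where 8.95% of all genes were. Between gels 0 genes of either list were called across embedding times, and 0.0305% of all genes were.

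Other gene lists were compared in the same libraries, again beside 16.1% of all genes higher after embedding at 72 h and 15.0% lower. Of 16 genes of hypoxia and glycolysis 4 were higher after embedding at 72 h and 0 lower, with a median of 0.22: P4ha1 (0.61), Slc2a1, a glucose transporter (0.44), Hk2, a hexokinase (0.50), and Bnip3 (0.61). Of 8 cardiac markers 6 were higher, with a median of 1.28, led by Nkx2-5 (1.87, SE 0.32, adjusted p = 0.000548) and Myl7 (2.07, SE 0.44, adjusted p = 0.00293). Of 5 markers of naive pluripotency 4 were lower, with a median of -1.74, led by Dppa5a (-2.60, SE 0.11, adjusted p = 5.69e-09). Of 4 endothelial markers 2 were lower, Tie1 (-0.74) and Cdh5 (-0.65), and of 10 gastruloid markers 3 were higher, among them T, with a mean of 222 CPM at 72 h and 91.1 CPM at 96 h, and 5 lower, among them Meox1 (-1.73), Foxc1 (-0.54) and Hoxb9, which had a mean of 0.0411 CPM at 72 h and 2.33 CPM at 96 h. Of the erythroid markers only Gata1 was tested, and it was higher (1.85, SE 0.38). This rested on low counts, as all 5 erythroid markers together summed to 0.530 to 1.28 CPM at 72 h and 0.185 to 0.471 CPM at 96 h. The part of cell composition in the mitochondrial values was not tested.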

How the data were processed

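Poly-A RNA-seq libraries of gastruloids harvested at 120 h were analysed in 4 groups of 3. Per the labels and the study's methods, the authors trimmed paired reads with cutadapt 4.4, aligned them to mm10 with STAR 2.7.10b with a modified Ensembl gene model, and deposited unnormalized counts for each gene. The strand setting of the counting is not given in the sources used here, so overlapping genes on opposite strands may share reads. The authors also deposited FPKM values from Cufflinks 2.2.1.3 with chrM masked: all 36 genes are listed at 0 there and only their loci were used. A deposited table of the authors' own comparisons, holding fold changes and p-values, was not used.

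Counts were fitted over the whole table with edgeR 4.0.16 in R 4.3.3 (quasi-likelihood F test, TMM; filterByExpr at 10 counts, and 15 in total). chrM genes were kept in the library sizes, Benjamini-Hochberg adjustment ran over all genes tested and an adjusted p below 0.05 was a call. Pairwise comparisons used the 6 libraries of the 2 groups, the others all 12. Levels are CPM of the TMM-scaled library size, and an SE is the log2 fold change divided by the root of F. On simulated counts with 200 changed genes, the pairwise fits recovered 100% of changes of 1.5 on the log2 scale. Of changes of 0.6 they recovered 83% for embedding time in either gel, 67% for gels at 72 h and 90% for gels at 96 h, with 15 to 21 false calls. Smaller changes, such as those of the called mitochondrial messenger RNA genes across gels (-0.53 to -0.40), were not simulated, so these figures do not cover them. The changed genes were drawn at random from the table with their own spread. Mitochondrial messenger RNA genes above 100 CPM had SDs within groups of 0.16 to 0.23, beside a median of 0.10 for genes of that level. The rates may thus be too high for these genes even at 0.6. Named genes are all messenger and ribosomal RNA genes in the files, the 5 highest transfer RNA genes and any called, up to 4 called genes per list with the smallest adjusted p, and 6 nuclear factors. The members and lists were chosen with earlier results of these data known. Sequences, types and strands came from GENCODE vM21 on GRCm38, whose coordinates for all 36 genes equal those in the files; window searches covered annotated transcripts only.

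Replicates of a group differed by a chi-square per degree of freedom of 10.2 to 125, so none was a repeat of another. The study's methods describe its replicates as biological ones. The replicate numbers were read as pairs where every same-numbered pair of libraries deviated together with a correlation over 0.1. That held for embedding time in 1.5 mM gels (0.12 to 0.30) and for gels at 72 h (0.10 to 0.24). The main fits left pairing out in every comparison, these included, and a block on replicate number was fitted only as an alternative. Alternatives were DESeq2 1.42.0, limma-voom 3.58.1, other normalizations and filters, a replicate block, stricter thresholds and leaving out each library.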

Additional observations from a re-analysis of the deposited data

How the results depend on the processing

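Across both gels 7 mitochondrial genes were called between embedding times, and the count was 7 with DESeq2, limma-voom, RLE or upper quartile normalization, scaling on nuclear genes, a filter of 1 CPM in 3 libraries and the replicate block, 8 without a filter, 6 at an adjusted p below 0.01 and 6 to 8 without each library in turn. mt-Nd1, mt-Nd2, mt-Nd4, mt-Nd5, mt-Cytb and mt-Tw were called in all 20 of these alternative fits and mt-Tt in 12. With an absolute log2 fold change above 1 required, the count was 0 in each comparison of embedding times. In 1.0 mM gels the count of 1 became 6 with DESeq2 or without a filter, 2 with limma-voom or with all 12 libraries in a single fit, 3 with the replicate block, 0 at an adjusted p below 0.01, and 0 to 5 without each library. In 1.5 mM gels the count of 6 became 2 at an adjusted p below 0.01 and 2 to 8 without each library. Over the whole table the calls across gels were 5103 of 16404 genes in the main fit and 5220 of 31433 without a filter. The other named settings gave 4887 to 5962. In 1.0 mM gels they were 1426 of 15779 in the main fit, 1717 with DESeq2 and 2289 of 29096 without a filter. There limma-voom gave 1368, the single fit 1808 of 16404 and the block 2177. No whole-table count was taken at an adjusted p below 0.01. Whole-table calls without each library ran from 3972 to 5678 across gels, from 730 to 1674 in 1.0 mM gels and from 1179 to 4114 in 1.5 mM gels. Between gels, leaving out the filter gave 1 call at 96 h and 2 across embedding times, 1 of the latter being mt-Tw (-0.51, adjusted p = 0.0122), and the cause was not tested. Over the whole table that setting called 333 of 29275 genes at 96 h and 515 of 31433 across embedding times, against 0 and 5 with the filter. The chrM share ratios moved by less than the spread between libraries under each denominator. Without each library in turn they ran from -0.50 to -0.18 in 1.0 mM gels, -0.45 to -0.30 in 1.5 mM gels, -0.20 to 0.11 between gels at 72 h and -0.079 to 0.069 between gels at 96 h.

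Without each library in turn, the log2 fold change between embedding times changed sign for genes that were not called in the main fits. For mt-Rnr1 it ran from -0.41 to 0.17 across gels, -0.18 to 0.28 in 1.0 mM gels and -1.05 to 0.30 in 1.5 mM gels. For mt-Rnr2 it ran from -0.45 to 0.060, -0.34 to 0.13 and -0.91 to 0.25, and for mt-Nd6 from -0.21 to 0.005, -0.41 to 0.061 and -0.16 to 0.091. Each of mt-Rnr1 and mt-Rnr2 was called in 1 of the 15 alternative fits in 1.5 mM gels. In 1.0 mM gels mt-Atp8 ran from -0.092 to 0.66 and mt-Co3 from -0.29 to 0.094, in 1.5 mM gels mt-Co2 from -0.24 to 0.12 and mt-Tp from -0.26 to 0.33, and between gels at 72 h mt-Tp from -0.65 to 0.048.

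In 1.0 mM gels and between gels at 96 h the rule for pairs was not met, the lowest same-number correlations being 0.05 and 0.07. The highest were 0.43 and 0.40, and 5 of 6 libraries correlated best with their own number in each. Failing the rule therefore does not show that the libraries were unpaired. The block changed the count of mitochondrial genes called in no comparison other than that of embedding time in 1.0 mM gels. Over the whole table it moved the calls from 1426 to 2177 in that comparison, from 3022 to 3882 in 1.5 mM gels, from 5103 to 5962 across gels, from 0 to 28 and 281 between gels at 72 h and 96 h, from 5 to 85 between gels across times, and from 0 to 5 for the interaction. Low counts kept 20 of the 36 genes out of every test, and the part of depth, read placement and poly-A selection in those counts was not tested.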
